A study of Mus musculus with 6 samples.

Results

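The 60 genes described here encode semaphorins, plexins, neuropilins, Slits, Robo receptors, netrins and their receptors, ephrins, the 4 L1 family adhesion molecules and Plxdc1. They were selected by gene symbol from the 52636 gene rows of a table of read counts. The families were proposed with results of the same comparison already known, so that every level and difference of these 60 genes is a description and not an independent test. The annotation lists 61 genes that meet the rule, and the remaining one, Ntn3, was not analysed here.

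Medullary thymic epithelial cells (mTEC) of 6-week-old C57BL/6 mice had been sorted into tuft-like and non-tuft-like populations, with 3 bulk RNAseq libraries of each. The labels give both populations as UEA1+, low in MHCII and without CD80, Sca1 or CD63, and the paper gives CD80 as low. Tuft-like cells carried CD117 and CD66a, whereas non-tuft-like cells carried neither. The comparison addressed which transcripts the cells without these markers shared with tuft-like mTEC. The labels do not state whether the 3 libraries of a population came from separate mice, and p-values therefore measure the spread between these libraries only. In bulk RNA, a larger share of cells of one type and more RNA per cell cannot be told apart.

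Axon guidance molecules were first described as cues that attract or repel growing axons. Semaphorins signal through plexins and, for the secreted class 3, through neuropilins as co-receptors. Slits bind Robo receptors, netrins bind Dcc, Neo1 and Unc5 receptors, and ephrins bind Eph receptors on the neighbouring cell. L1cam, Chl1, Nrcam and Nfasc are immunoglobulin superfamily proteins that span the membrane, bind in cis and in trans and anchor to the actin and spectrin skeleton through ankyrins and ERM proteins. Outside the nervous system many of these genes act in epithelial adhesion, vessel growth and leukocyte migration.

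The counts on genes summed to 20097617 to 48369825 per library. Reads that matched no annotated gene made up 34.4% to 52.5% of the non-tuft-like and 19.7% to 61.6% of the tuft-like libraries. The lowest share was in tuft-like replicate 3. Reads left unassigned for other reasons are not part of this share. Levels are given as CPM (each library's counts brought to the same sum) after trimmed mean of M values (TMM) scaling, and log2 fold changes (tuft-like over non-tuft-like) with their standard error (SE) and Benjamini-Hochberg adjusted p come from edgeR's quasi-likelihood test over 32496 genes at a threshold of 0.05. A count of 0 allowed a level of up to 0.0639 to 0.124 CPM, taken as 3 counts, depending on the library, which covers counting error only. The labels were checked on the genes of the sort and on tuft cell genes. Ceacam1, which encodes CD66a, was higher in tuft-like mTEC (log2 fold change 4.12, adjusted p = 0.000886), and Kit, which encodes CD117, lay at 141.0 to 184.9 CPM in the non-tuft-like and 300.9 to 451.4 CPM in the tuft-like libraries (1.24, adjusted p = 0.0678). All 7 listed tuft genes were called higher, among them Dclk1 (5.80) and Trpm5 (4.31). Of the 5 listed thymic epithelial (TEC) genes, Epcam and Krt8 were present in every library at no less than 229.5 CPM and 1942 CPM. Krt14 (-3.49, adjusted p = 0.000885) and Foxn1 (-3.48, adjusted p = 0.00043) were called lower in tuft-like mTEC. Krt5 was lower without a call (-3.02, adjusted p = 0.0985).

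Of the 60 genes, 6 were called higher in tuft-like mTEC and 1 was called lower. The higher genes were the ligands Sema5a and Slit2, the receptors Robo2 and Unc5b and the adhesion molecules L1cam and Nrcam, and the lower gene was the ephrin Efna3. These 7 genes made up 11.7% of the set, where 2.11% of all tested genes were called, 1.16% as higher and 0.951% as lower. Because this comparison was in view when the families were proposed, nothing is read from that gap. The other 53 genes did not pass the threshold, and 37 of the 60 had a negative and 23 a positive log2 fold change, with a median of -0.20 beside 0.02 over all tested genes. Libraries did not overlap for 8 genes higher and 13 genes lower in tuft-like mTEC, or 35.0% of the set, beside 16.0% of all tested genes (7.18% higher and 8.85% lower). Of the 7 called genes, 3 remained called when replicate 2 of either population was left out and 4 when non-tuft-like replicate 3 was left out. The count over all genes went from 687 to 379 when the analysis left out replicate 2 of the non-tuft-like cells and to 376 when it left out replicate 2 of the tuft-like cells. Sema5a, Slit2 and L1cam kept their call in each of the 13 alternative settings.

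**Figure D1:**
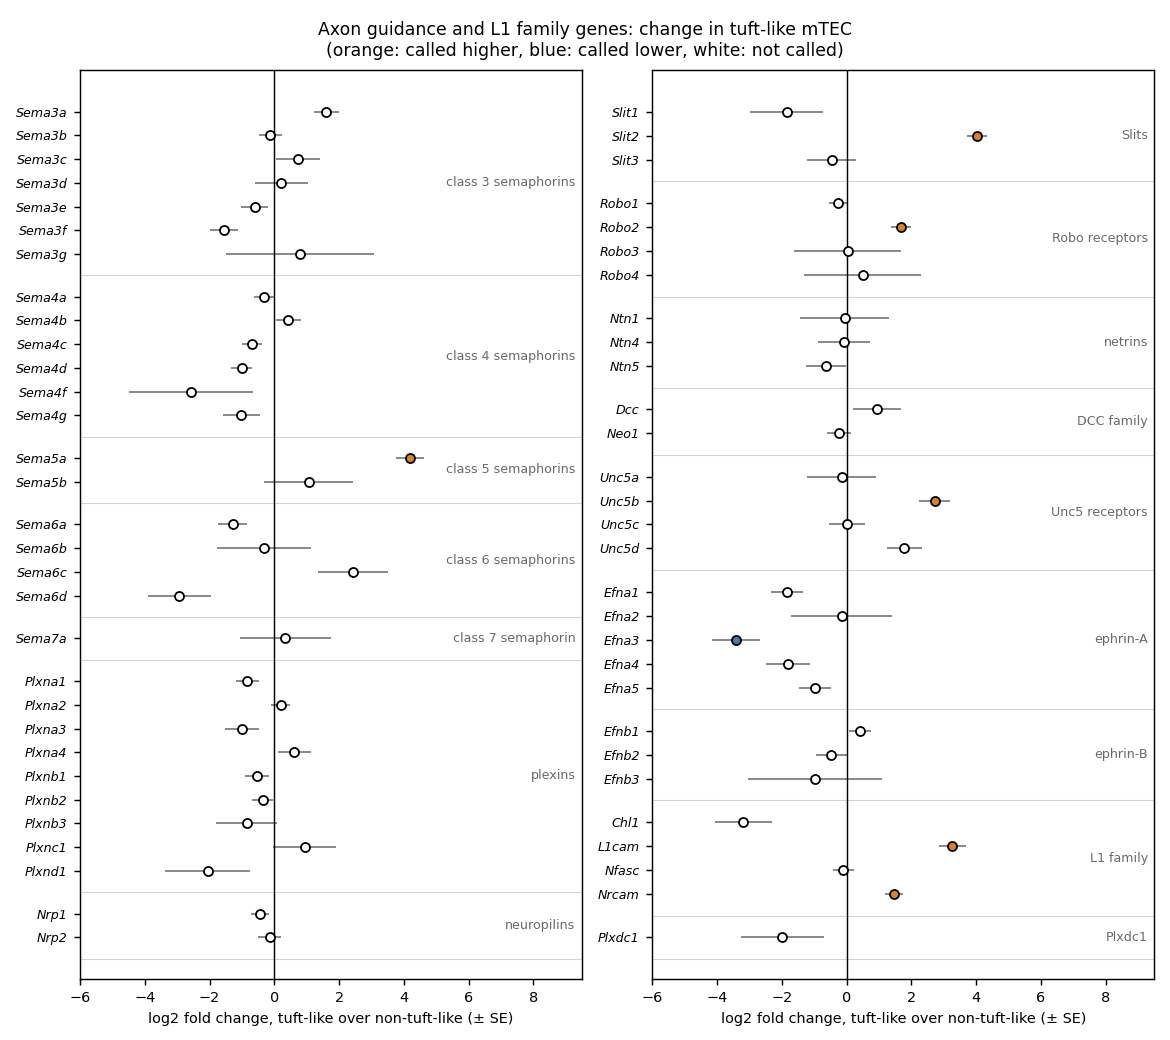
Log2 fold change (tuft-like over non-tuft-like, x axis) with its SE for the 60 genes, grouped by family. Orange points mark the 6 genes called higher, the blue point marks Efna3, the 1 gene called lower, and white points mark the 53 genes not called. Sema5a and Slit2 lie farthest to the right at 4.18 and 4.02, and each sits in a family whose other members were not called.

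The 250 bases before the start of a gene were available from RefSeq (GRCm38.p6, the same assembly as mm10) for 49 of the 60 genes, in 66 windows. Windows are printed for the called genes with the largest differences, Slit2, Sema5a, L1cam and Efna3, to show what kind of promoter these genes carry. Capitals mark the GC box CCGCCC and the TATA box TATAAA on either strand, and overlapping matches are merged. They are given 5′ to 3′ on the strand of the gene, for Slit2 at chr5:47982905-47983154 (plus), for Sema5a at chr15:32244563-32244812 (plus), for the farther upstream of the RefSeq starts of L1cam at chrX:73880835-73881084 (minus) and for the farther upstream of those of Efna3 at chr3:89322940-89323189 (minus).
Slit2: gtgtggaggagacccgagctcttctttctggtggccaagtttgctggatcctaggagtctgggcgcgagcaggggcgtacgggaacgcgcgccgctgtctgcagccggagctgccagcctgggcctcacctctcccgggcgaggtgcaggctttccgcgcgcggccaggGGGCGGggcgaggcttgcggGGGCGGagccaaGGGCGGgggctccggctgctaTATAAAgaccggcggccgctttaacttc
Sema5a: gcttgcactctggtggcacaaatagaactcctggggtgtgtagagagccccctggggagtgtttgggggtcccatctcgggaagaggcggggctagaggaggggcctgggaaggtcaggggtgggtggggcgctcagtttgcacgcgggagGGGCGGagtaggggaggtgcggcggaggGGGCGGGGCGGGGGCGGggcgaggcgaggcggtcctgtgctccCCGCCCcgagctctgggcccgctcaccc
L1cam: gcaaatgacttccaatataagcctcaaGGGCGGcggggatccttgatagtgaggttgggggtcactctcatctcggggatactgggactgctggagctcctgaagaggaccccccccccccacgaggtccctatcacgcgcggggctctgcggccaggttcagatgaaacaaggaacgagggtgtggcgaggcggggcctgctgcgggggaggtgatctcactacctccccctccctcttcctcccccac
Efna3: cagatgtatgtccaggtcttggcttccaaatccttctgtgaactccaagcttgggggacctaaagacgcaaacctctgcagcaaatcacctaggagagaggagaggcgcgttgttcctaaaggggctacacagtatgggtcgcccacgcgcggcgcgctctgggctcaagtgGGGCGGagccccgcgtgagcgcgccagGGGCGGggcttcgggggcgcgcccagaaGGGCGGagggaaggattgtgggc

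All 4 windows are rich in G and C. Over the windows of the whole set the median GC content was 64.4% and the median number of CpG dinucleotides 14.5, beside 52.4% and 6 over all 32851 RefSeq windows. A GC box, to which Sp family factors bind, was found in 36 of the 49 genes (73.5%), beside 35.4% of all genes and 32.7% of all windows. The TATA box was found in Slit2 and Efnb2 alone among the 49 genes (4.08%), beside 14.3% of all genes and 12.4% of all windows. In Slit2 it follows the 3 GC boxes shortly before the start. The E-box CAGCTG was found in 9 genes (18.4%), Robo2 among them, beside 14.7% of all genes and 13.0% of all windows. The octamer ATGCAAAT, the site known for POU factors, was found in 0 of the 49 genes, beside 1.81% of all genes and 1.6% of all windows. A match is a run of letters and not a measured binding site, and the counts do not tell which start was used. The printed L1cam window lies inside the annotated gene, whose 5′ end is at 73896105 on chromosome X. Part of the Sema5a window also lies in an exon of Snhg18, a noncoding RNA on the opposite strand.

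Among the secreted ligands, Slit2 showed the clearest separation. Slit2 (ENSMUSG00000031558, chromosome 5, 47983138 to 48307733) lay at 29.7, 31.0 and 33.5 CPM in replicates 1 to 3 of the non-tuft-like and at 399.8, 555.8 and 576.9 CPM in those of the tuft-like cells. Every tuft-like library was far above every non-tuft-like library, with means of 31.4 ± 1.92 and 510.9 ± 96.7 CPM (SD, n = 3 each), a 16.3-fold higher mean. The log2 fold change was 4.02 ± 0.31 (SE, adjusted p = 0.000334), and between 3.89 and 4.18 when each library was left out in turn.

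The other Slits had the opposite order of means. Slit1 lay at 17.0, 17.3 and 21.6 CPM in the non-tuft-like and at 9.01, 6.52 and 0.0552 CPM in the tuft-like libraries, with tuft-like replicate 3 below the limit that a count of 0 allows (log2 fold change -1.85, adjusted p = 0.896). Slit3 overlapped between the populations, at 6.17 to 14.2 and 2.32 to 12 CPM (-0.47, adjusted p = 1). Levels of different genes were compared as CPM per kb of annotated exon, where the length is the union of all isoforms, which lowers the value of genes with many isoforms such as Slit2. On that scale Slit2 made up 18.3% to 22.0% of the summed Slit level in the non-tuft-like and 84.3% to 98.3% in the tuft-like libraries, and the sum was 6.13 ± 0.218 and 22.2 ± 3.22 CPM per kb (SD, n = 3). Slit1 held the largest share in the non-tuft-like libraries, with 51.4% of the sum of the means.

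Of the receptors for Slits, Robo2 was called higher in tuft-like mTEC. Robo2 (ENSMUSG00000052516, chromosome 16, 73891839 to 74411825) lay at 53.4, 52.3 and 50.3 CPM in the non-tuft-like and at 110.5, 163.0 and 229.7 CPM in the tuft-like libraries. The non-tuft-like libraries agreed closely, and the lowest tuft-like library was still above all of them (3.23-fold by the means, log2 fold change 1.69 ± 0.31, adjusted p = 0.0207). The call was lost without non-tuft-like replicate 1 (adjusted p = 0.0772), 2 (0.122) or 3 (0.0666) or tuft-like replicate 2 (0.0732), within a range of 3.99e-06 to 0.122 over all alternatives.

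Robo1, the most abundant Robo gene of the non-tuft-like libraries per exon length, overlapped between the populations at 74.7 to 115.9 and 59.8 to 92.8 CPM (log2 fold change -0.27, adjusted p = 1). Of these receptors Robo2 was the more abundant in tuft-like mTEC, with 9.88 against 4.71 CPM per kb, and the less abundant in non-tuft-like mTEC, with 3.06 against 5.69 CPM per kb. Robo3 and Robo4, the latter known from endothelium, did not exceed 13.8 and 7.98 CPM in any library and were both at 0 in tuft-like replicate 3.

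**Figure D2:**
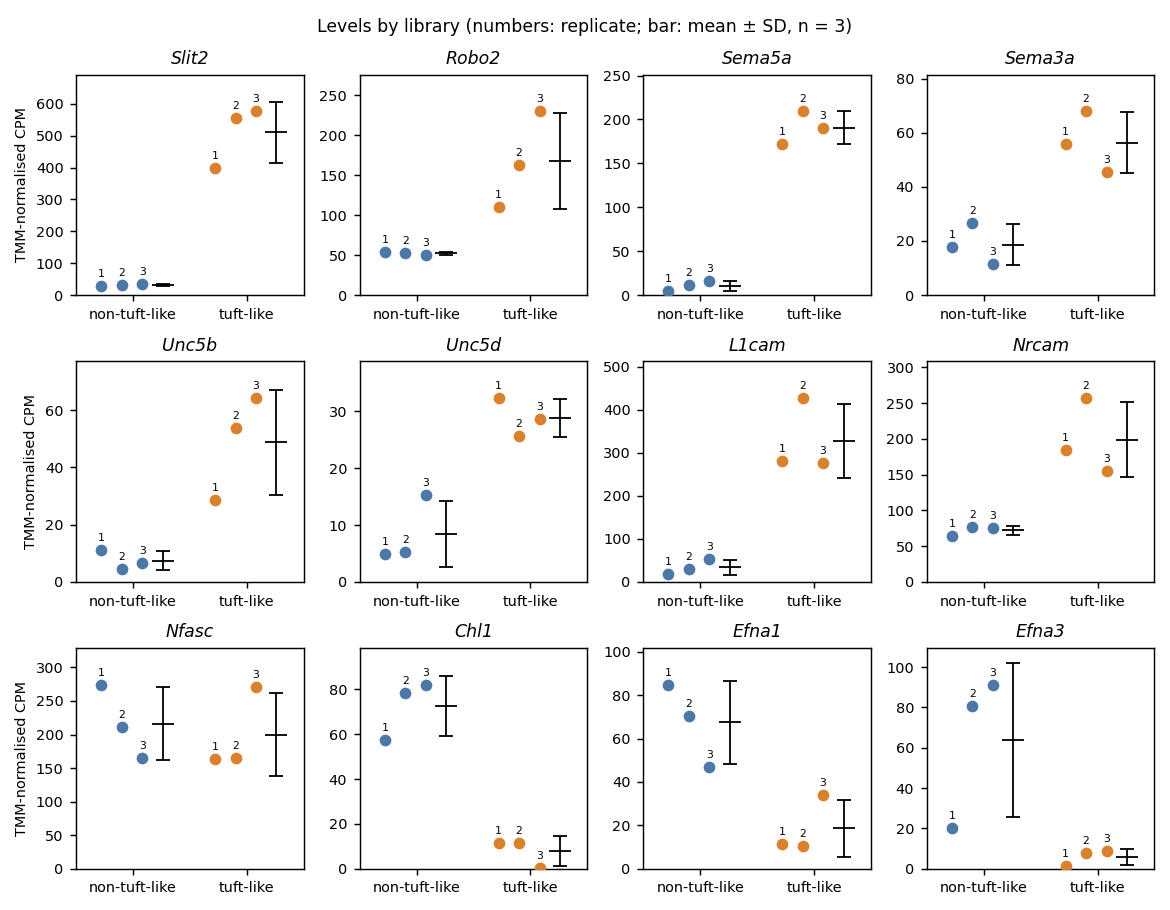
TMM-normalised CPM (y axis, each panel on its own scale from 0) of 12 genes in the 3 non-tuft-like (blue) and 3 tuft-like (orange) libraries, numbered by replicate, with the mean and SD beside the points. The populations do not overlap for 11 of the genes, and Nfasc is the exception, with 164.7 to 273.8 CPM in the non-tuft-like and 164.0 to 271.2 CPM in the tuft-like libraries. The 12 genes were picked for display, and the libraries did not overlap for 35.0% of the 60 genes and 16.0% of all tested genes.

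Of the 20 semaphorins, 1 was called. Sema5a (ENSMUSG00000022231, chromosome 15, 32244810 to 32696341), a transmembrane semaphorin with thrombospondin repeats, lay at 4.95, 10.9 and 15.6 CPM in the non-tuft-like and at 172.1, 209.3 and 190.2 CPM in the tuft-like libraries. Its tuft-like libraries lay close together and far above the others, an 18.2-fold higher mean (log2 fold change 4.18 ± 0.43, adjusted p = 0.000886). Its paralogue Sema5b was low and overlapped, with at most 4.54 and 9.79 CPM (1.06, adjusted p = 1).

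The secreted class 3 semaphorins pointed in both directions, and 0 of the 7 were called by edgeR (2 at an unadjusted p under 0.05, 2 by DESeq2 and 0 by limma voom). Sema3a, the founding repellent of the class, lay at 17.6, 26.5 and 11.5 CPM in the non-tuft-like and 55.7, 67.9 and 45.4 CPM in the tuft-like libraries, which left no overlap (log2 fold change 1.60 ± 0.39, adjusted p = 0.0718). For Sema3f, which prefers Nrp2 as a co-receptor, the order was reversed, with 23.4, 40.1 and 45.9 CPM against 7.89, 16.9 and 12.3 CPM (-1.56 ± 0.44, adjusted p = 0.141). Sema3b, the most abundant class 3 gene per exon length in both populations (8.15 and 7.45 CPM per kb), overlapped. The summed class 3 level was 22.8 ± 1.78 and 20.1 ± 4.71 CPM per kb, so that the share of Sema3a was 3.95% to 7.79% in the non-tuft-like and 12.8% to 28.1% in the tuft-like libraries, while that of Sema3f was 19.8% to 42.0% and 8.76% to 18.6%.

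Class 4 and class 6 semaphorins are bound to the membrane, and class 4 includes the immune semaphorins Sema4a and Sema4d. By edgeR 0 of these 10 genes were called (4 at an unadjusted p under 0.05, 1 by DESeq2 and 0 by limma voom). Sema4d, the ligand of Plxnb1, lay at 38.0, 52.1 and 46.8 CPM in the non-tuft-like and at 17.6, 25.0 and 25.5 CPM in the tuft-like libraries, again with no overlap (log2 fold change -1.01, adjusted p = 0.242). Sema4a was the most abundant semaphorin per exon length in both populations (39.7 and 31.5 CPM per kb), at 212.3 to 218.4 CPM in the non-tuft-like and 119.3 to 238.4 CPM in the tuft-like libraries.

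The remaining genes of these classes that are named here differed in how far their libraries spread. Sema4c (-0.69, adjusted p = 0.592), Sema4g (-1.02, adjusted p = 0.83) and Sema6a (-1.29, adjusted p = 0.26) were lower in each tuft-like than in each non-tuft-like library. Sema6d lay at 28.6, 70.9 and 55.9 CPM against 14.2, 5.85 and 0.276 CPM, a difference without overlap that did not pass the test (-2.94, adjusted p = 0.243). Sema6c ranged from 0.789 to 18.3 CPM and from 4.59 to 73.6 CPM, and its libraries overlapped (2.43, adjusted p = 0.539). Leaving out 1 library moved that log2 fold change between 1.76, when it was tuft-like replicate 3, and 3.87, when it was replicate 3 of the non-tuft-like cells.

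Plexins, the receptors of the semaphorins, were the family with the highest mean summed level per exon length in both populations. Plxnb2 lay at 708.4, 558.1 and 412.2 CPM in the non-tuft-like and 360.1, 437.6 and 506.9 CPM in the tuft-like libraries, and was the most abundant of the 60 genes per exon length in both (72.5 and 56.3 CPM per kb). Its populations overlapped (log2 fold change -0.36, adjusted p = 1), as did those of Plxnb1, the next plexin in abundance (32.6 and 22.4 CPM per kb). By edgeR 0 of the 9 plexins were called (1 at an unadjusted p under 0.05, 0 by DESeq2 and 0 by limma voom), and Plxna1 was the 1 plexin without overlap, at 47.7 to 48.3 CPM against 15.6 to 33.7 CPM (-0.84, adjusted p = 0.496). Summed over the family the level was 127.1 ± 27.8 and 97.5 ± 20.1 CPM per kb. The co-receptors Nrp1 (9.21 and 6.81 CPM per kb) and Nrp2 (8.88 and 8.02 CPM per kb) overlapped as well.

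Among netrins and their receptors, the 1 gene called was a receptor. Ntn1 and Ntn4 did not exceed 8.04 and 15.1 CPM in any library, and Ntn5, the most abundant netrin per exon length, overlapped at 9.21 to 21.1 and 4.30 to 14.7 CPM, with 519 of its 2216 exonic bases shared with Sec1 on the opposite strand. Neo1 (27.6 to 30.1 and 15.9 to 32.2 CPM) and Dcc (3.16 to 15.1 and 9.63 to 18.9 CPM) overlapped. Unc5b (ENSMUSG00000020099, chromosome 10, 60762593 to 60831581), a netrin receptor also known from vessel endothelium, lay at 11.0, 4.56 and 6.64 CPM in the non-tuft-like and 28.5, 53.6 and 64.2 CPM in the tuft-like libraries. All 3 tuft-like libraries were above all others (6.58-fold by the means, log2 fold change 2.72 ± 0.48, adjusted p = 0.0151), and the call was lost without non-tuft-like replicate 2 (adjusted p = 0.0637) or tuft-like replicate 2 (0.0634), within 1.41e-06 to 0.0637 over all alternatives. Unc5d lay at 4.83, 5.26 and 15.2 CPM and at 32.3, 25.6 and 28.7 CPM, without overlap and without passing the test (1.78 ± 0.55, adjusted p = 0.196). Unc5a and Unc5c overlapped, and the summed Unc5 level was 4.5 ± 1.43 and 13.2 ± 2.82 CPM per kb, of which Unc5b made up 17.5% to 53.9% in the non-tuft-like and 45.4% to 72.7% in the tuft-like libraries, which overlap.

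Because Unc5b and Robo4 are also known from endothelium, 8 endothelial marker genes were read beside these families. Their summed level was 55.7 to 72.8 CPM in the non-tuft-like and 235.4 to 441.1 CPM in the tuft-like libraries. Tek was the 1 marker called (22.2, 36.7 and 11.4 CPM against 169.2, 141.8 and 225.0 CPM, log2 fold change 2.93, adjusted p = 0.00565), and Esam lay at 5.71 to 23.7 and 52.2 to 101.4 CPM (adjusted p = 0.0522). Of the defining markers, Pecam1 was high in tuft-like replicate 1 only, at 106.3 CPM against 3.07 to 8.99 CPM in the other 5 libraries. Kdr (41.2 CPM), Tie1 (26.6 CPM), Egfl7 (24.5 CPM), Cdh5 (11.1 CPM) and Emcn (10.1 CPM) also had their highest values in tuft-like replicate 1. In tuft-like replicate 3 the levels were 3.07 CPM for Pecam1, 2.40 CPM for Cdh5, 0.331 CPM for Tie1, 0.221 CPM for Kdr, 0.0552 CPM for Egfl7 and 0 for Emcn. Of all tested genes, 56.2% had their lowest tuft-like value in replicate 3. Tek (225.0 CPM) and Esam (101.4 CPM) had their highest values there. The part of endothelial RNA in these values was not tested.

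**Figure D3:**
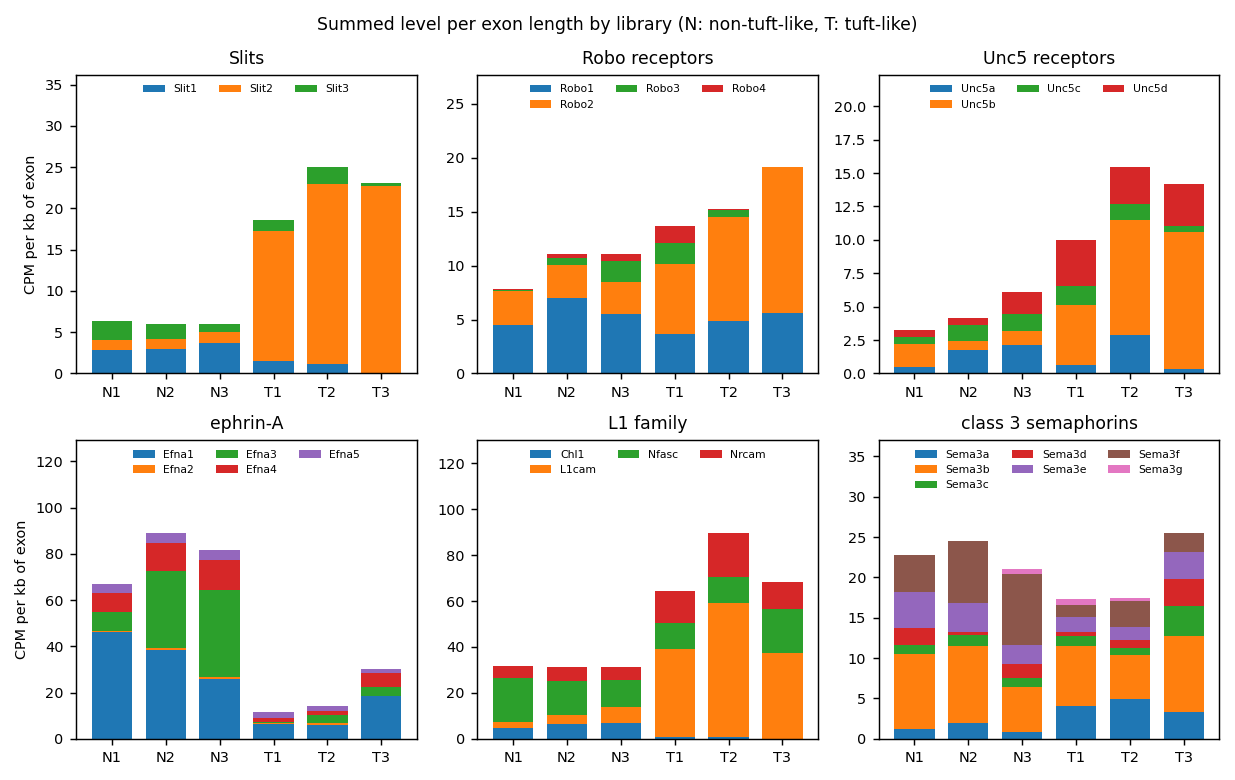
Summed level per exon length (CPM per kb, y axis from 0) of 6 families in non-tuft-like libraries N1 to N3 and tuft-like libraries T1 to T3, with each gene in its own colour. The Slit sum is mostly Slit2 in T1 to T3 (84.3% to 98.3%), the L1 family sum is mostly L1cam there (54.8% to 64.6%), and the ephrin-A sum is lower in every tuft-like library.

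Ephrins of the A type, which are anchored in the membrane by a lipid, were lower in tuft-like mTEC by their means for all 5 genes, with 1 called. Efna3 (ENSMUSG00000028039, chromosome 3, 89313899 to 89322965) lay at 20.1, 80.6 and 91.1 CPM in the non-tuft-like and at 1.32, 7.78 and 8.78 CPM in the tuft-like libraries. There was no overlap, although non-tuft-like replicate 1 was well below its group (10.7-fold lower by the means, log2 fold change -3.42 ± 0.75, adjusted p = 0.0466). The call sat close to the threshold and was lost without non-tuft-like replicate 2 (adjusted p = 0.103) or 3 (0.102), without tuft-like replicate 2 (0.091) or 3 (0.0813) and with limma voom (0.124), within 1.27e-05 to 0.124 over all alternatives. Of its 2434 exonic bases, 344 overlap Gm15998 on the opposite strand, and the strand setting of the counting is not named in the sources used here, so reads of both cannot be told apart.

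Efna1, a ligand of Epha2, lay at 84.7, 70.6 and 47.1 CPM against 11.6, 10.6 and 33.9 CPM. Its populations did not overlap, with tuft-like replicate 3 nearest to the non-tuft-like libraries (log2 fold change -1.85 ± 0.49, adjusted p = 0.103). Efna4 showed the same order at 13.4, 19.3 and 21.1 CPM against 2.60, 3.10 and 9.61 CPM (-1.81, adjusted p = 0.36). With tuft-like replicate 3 left out, Efna1 had a log2 fold change of -2.64 (adjusted p = 0.00671, range 0.00568 to 0.347 over all alternatives) and Efna4 one of -2.69 (adjusted p = 0.0297, range 0.0297 to 0.985). Efna5 (-0.98, adjusted p = 0.718) did not overlap either, and Efna2 stayed at or below 2.66 CPM in every library. The summed ephrin-A level was 79.2 ± 11.3 and 18.6 ± 10.3 CPM per kb, at 66.9, 89.1 and 81.6 against 11.4, 14.1 and 30.4 CPM per kb by library. The transmembrane ephrins of the B type overlapped in all 3 cases, and Efnb1, the most abundant, lay at 28 to 40.4 and 33.1 to 54.2 CPM (0.41, adjusted p = 1).

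Efna1, Efna3 and Efna4 are neighbours on chromosome 3 and lie on the minus strand within 66296 bases, separated by gaps of 32756 and 10424 bases. Of the 14 protein-coding genes from 50000 bases before Efna1 to 50000 bases after Efna4, Efna3 was the 1 called, and 5 did not overlap, all lower in tuft-like mTEC, beside 2.11% called and 8.85% lower without overlap among all tested genes. Of the 5, the ephrins were those the window was drawn around, and nothing is read from the count. The 5 were the 3 ephrins, Thbs3 (log2 fold change -1.45, adjusted p = 0.162) and Muc1 (-0.96, adjusted p = 0.246). Slc50a1, next to Efna1, was at 0.10, and Adam15, next to Efna4, was at 0.50.

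**Figure D4:**
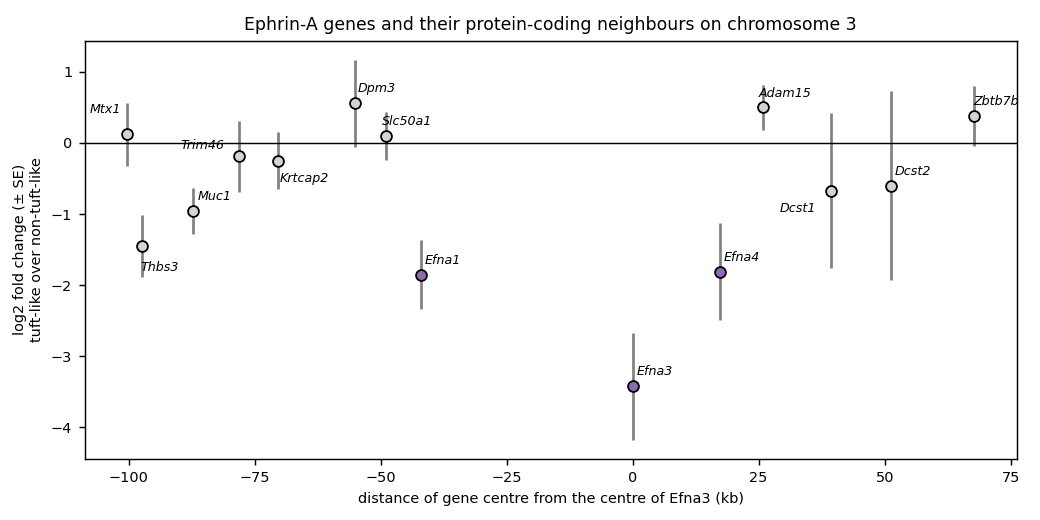
Log2 fold change (tuft-like over non-tuft-like, y axis) with its SE for the 14 protein-coding genes around the ephrin-A genes of chromosome 3, placed by the distance of the gene centre from that of Efna3 (x axis, kb). Purple points are the ephrin genes, at -1.85, -3.42 and -1.81, and grey points are their neighbours, of which Slc50a1 and Adam15 lie just above 0.

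The L1 family showed members in both directions. L1cam (ENSMUSG00000031391, chromosome X, 73853778 to 73896105), a marker known for tuft-like mTEC, lay at 19.2, 29.8 and 53.2 CPM in the non-tuft-like and at 280.2, 427.1 and 275.2 CPM in the tuft-like libraries. Each tuft-like library was well above each non-tuft-like library, a 9.61-fold higher mean (log2 fold change 3.26 ± 0.42, adjusted p = 0.00267). Nrcam (ENSMUSG00000020598, chromosome 12, 44328885 to 44601964), which binds contactins, lay at 64.6, 76.5 and 74.9 CPM against 183.9, 256.9 and 155.4 CPM. It too showed no overlap (2.76-fold by the means, 1.46 ± 0.29, adjusted p = 0.0277), and its call was lost without non-tuft-like replicate 1 (adjusted p = 0.154), 2 (0.161) or 3 (0.0899) or tuft-like replicate 2 (0.179), within 2.27e-05 to 0.179 over all alternatives.

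Chl1, the close homologue of L1cam, had the opposite order. It lay at 57.5, 78.5 and 82.0 CPM in the non-tuft-like and at 11.6, 11.7 and 0.387 CPM in the tuft-like libraries. The populations were far apart, but the spread of the tuft-like libraries was wide, with replicate 3 lowest, and the difference did not pass the test (log2 fold change -3.20 ± 0.88, adjusted p = 0.123). Without tuft-like replicate 3 the adjusted p was 0.00334, within 0.000398 to 0.212 over all alternatives. Nfasc lay at 273.8, 210.6 and 164.7 CPM against 164.0, 164.4 and 271.2 CPM and overlapped fully (-0.11 ± 0.32, adjusted p = 1).

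The make-up of the family was read per exon length. In the non-tuft-like libraries the sum was 31.5, 31.1 and 31.2 CPM per kb, of which Nfasc held 37.4% to 61.5% and L1cam 8.32% to 23.2%. In the tuft-like libraries it was 64.4, 89.9 and 68.3 CPM per kb, of which L1cam held 54.8% to 64.6% and Nfasc 12.9% to 28.1%. Chl1 held 14.8% to 21.4% in the former and 0.046% to 1.47% in the latter. The L1 family is best known from neurons and Schwann cells, and 8 marker genes of these cells were read beside it. Of the 7 tested, 0 were called by edgeR (1 at an unadjusted p under 0.05, 0 by DESeq2 and 0 by limma voom), and their sum, mostly Snap25, was 228.8 to 324.1 CPM in the non-tuft-like and 142.0 to 194.0 CPM in the tuft-like libraries. Sox10 and S100b were both at 0 CPM in replicate 3 of the tuft-like cells, in which L1cam was at 275.2 CPM.

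Plxdc1, a transmembrane protein with a plexin-like domain known from tumour endothelium, was low and overlapped at 8.66 to 28.4 and 0.0276 to 9.51 CPM (log2 fold change -1.99, adjusted p = 0.947). Several other genes of the set were also close to the background of the libraries. As a reference, the level per exon length that 1092 olfactory receptor genes reached at their 99th percentile was 1.26 to 2.78 CPM per kb. Of the 60 genes, 17 exceeded it in all 6 libraries and 14 in none, and 29 exceeded it in all 3 non-tuft-like and 22 in all 3 tuft-like libraries. Slit2, Sema5a, Unc5b and Unc5d were above it in the 3 tuft-like libraries and in none of the non-tuft-like libraries. For Slit2 the annotated exon length of 25433 bases lowers this value, and its non-tuft-like libraries held 942 to 1457 counts. Tuft-like replicate 3, the library with the lowest olfactory receptor mean (0.0725 CPM per kb, against 0.179 to 0.631 in the others), held the lowest tuft-like value for 25 of the 60 genes (41.7%, beside 56.2% of all tested genes). In 11 genes, Slit1 and Chl1 among them, its value was under 10% of that in each of the other tuft-like libraries (18.3%, beside 39.3%).

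The rest of the pathway was read from 85 further genes, all of them tested. Of these, 4 were called (4.71%, beside 2.11% of all tested genes), 2 in each direction, with a median log2 fold change of 0.01. Enah, an actin regulator downstream of Robo and netrin receptors, lay at 25.7, 33.0 and 37.1 CPM in the non-tuft-like and 134.1, 160.7 and 165.8 CPM in the tuft-like libraries (2.27 ± 0.28, adjusted p = 0.00207). Fes, a tyrosine kinase that binds plexins, lay at 41.7, 29.7 and 27.3 CPM against 86.5, 126.8 and 211.5 CPM (2.11, adjusted p = 0.0157). Neither overlapped between the populations, and the call of Fes was lost without non-tuft-like replicate 2 (adjusted p = 0.0817, range 8.49e-07 to 0.0817).

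The genes called lower were both membrane proteins. Cntn2, a contactin that binds L1 family proteins, lay at 58.8, 91.7 and 51.3 CPM against 3.60, 7.86 and 0.773 CPM (-4.04, adjusted p = 0.0161) and kept its call in all 13 alternatives. Its log2 fold change ran from -4.97, without tuft-like replicate 2, to -3.59 when each library was left out in turn, and was -4.64 with limma voom. Plxdc2, the paralogue of Plxdc1, lay at 160.0, 261.2 and 230.2 CPM against 28.3, 28.3 and 84.2 CPM (-2.21, adjusted p = 0.0352). Its call was lost without non-tuft-like replicate 2 (adjusted p = 0.103) or 3 (0.0506) and without tuft-like replicate 1 (0.0728) or 2 (0.149), within 1.47e-05 to 0.149 over all alternatives, and its log2 fold change was -2.98 without tuft-like replicate 3. The pathway count was 2 without non-tuft-like replicate 2.

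Of the 14 Eph receptors, which bind ephrins, 0 were called by edgeR (6 at an unadjusted p under 0.05, 4 by DESeq2 and 2 by limma voom). Their libraries did not overlap in 7 cases, 6 of them higher in tuft-like mTEC, where 16.0% of all tested genes did not overlap and 7.18% did so as higher. Ephb4 lay at 15.4, 39.7 and 35.5 CPM in the libraries of non-tuft-like cells and at 53.9, 218.9 and 208.3 CPM in those of tuft-like cells (log2 fold change 2.41, adjusted p = 0.0523). Epha7 (1.35, adjusted p = 0.0931), Epha5 (2.53, adjusted p = 0.105), Ephb6 (1.26, adjusted p = 0.146), Epha4 (0.90, adjusted p = 0.328) and Ephb3 (1.06, adjusted p = 0.395) had the same order, and Epha2 the opposite one (-2.26, adjusted p = 0.743). The summed level of the Eph receptors was 309.2, 337.3 and 319.7 CPM in the non-tuft-like and 395.8, 699.7 and 754.7 CPM in the tuft-like libraries. Of 10 ankyrins and other intracellular partners of the L1 family 0 were called by edgeR (1 at an unadjusted p under 0.05, 1 by DESeq2 and 0 by limma voom), and 2 did not overlap, Ank3 at 0.52 and Ezr at -0.87.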

How the data were processed

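RNA from 3 libraries each of sorted tuft-like and non-tuft-like mTEC had been sequenced with an ultra-low input protocol. Per the study's methods and the submitters' processing notes, reads were trimmed with Trimmomatic 0.36, aligned to mm10 with STAR 2.7.3a and assigned to genes with HTSeq, and the authors deposited the read counts per gene without normalization. The strand setting and annotation release are not given in the sources used here. Identifiers were matched to GENCODE M21, which named 99.72% of the gene rows. The 92 spike-in rows, at 0 reads in every library, and the 5 summary rows were left out.

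Low counts were filtered with filterByExpr (its minimum count set to 10 and its minimum total to 15), and the remaining genes were scaled by TMM and tested with edgeR 4.0.16 (quasi-likelihood F-test, R 4.3.3, no covariates) with Benjamini-Hochberg adjustment over all tested genes. SE was derived from the F statistic. The common biological coefficient of variation was 1.1. An exact permutation test on 1 gene could not reach a p below 0.1 with 3 libraries a side. The script was tested on simulated data. Replicate numbers were not treated as pairs. Alternatives were other scalings, DESeq2 1.42.0, voom of limma 3.58.1, 2 other filters, a block for the replicate number and each library left out.

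The genes and all lists were chosen with earlier results of these data known. Genes named with full values were those called, the 4 L1 family genes, up to 12 uncalled genes without overlap whose higher mean reached 5 CPM, the most abundant gene of each family per exon length, and called genes of the pathway list. Other genes were named after their values were seen. Values of some listed genes are not reported here. Other marker lists had these summed levels in the non-tuft-like and tuft-like libraries: mature mTEC 13918 to 17480 and 2221 to 4927 CPM (4 of 6 called lower), TEC 3685 to 4174 and 2897 to 6762 CPM (2 of 5, Krt14 and Foxn1, called lower), fibroblast and mural 144.1 to 177.3 and 57.9 to 211.1 CPM (1 of 8, Rgs5, called lower), neuroendocrine 1720 to 3522 and 838.5 to 1511 CPM, thymocyte 19.1 to 31.7 and 6.24 to 32.4 CPM, and myeloid and B cell 16.1 to 45.6 and 22.5 to 55.6 CPM, with 0 called by edgeR in the last 3 lists (1, 0 and 0 at an unadjusted p under 0.05, and likewise 1, 0 and 0 by DESeq2 and by limma voom).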

Additional observations from a re-analysis of the deposited data

How the results depend on the processing

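Over all tested genes 687 were called in the analysis described above, 1045 with library size only, 1686 with DESeq2 and 1127 without a filter on low counts, and 376 to 922 when each library was left out in turn. Of the 60 axon guidance and L1 family genes 7 were called, against 13 with DESeq2 and 11 without the filter, and 3 to 9 when each library was left out. Of the 85 further pathway genes 4 were called, against 9 with library size only, 14 with DESeq2, 8 with limma voom and 8 with a filter of at least 1 CPM in 3 libraries, and 2 to 6 when each library was left out. DESeq2 gave no adjusted p for Plxnd1. The cause was not tested.

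With the replicate number as a block the counts were 737, 9 and 5, and 578, 6 and 4 of these were called without it too. The replicate numbers are not known to pair the samples, and deviations from the group means correlated at -0.156, -0.061 and -0.326 within numbers 1 to 3. The block gave calls for Chl1 (adjusted p = 0.0363), Sema3a (0.0434) and Sema6c (0.0119), and no call for Nrcam (0.0634).

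DESeq2 also called Sema3a (adjusted p = 0.00286), Sema3f (0.0247), Unc5d (0.0343), Sema6d (0.0176), Efna1 (0.00568) and Chl1 (0.00128). Of the values of named genes over all alternatives, 438 kept direction and side of the threshold, 26 passed it, 21 no longer did and 9 turned sign. The last were all log2 fold changes near 0 in uncalled genes with a library left out. With every library left out in turn the ranges were -0.38 to 0.05 for Sema3b, -0.19 to 0.77 for Sema7a, -0.50 to 0.13 for Nrp2 and -0.44 to 0.07 for Nfasc. Sema3b was at 0.00 and 0.05 without replicate 2 of the non-tuft-like or tuft-like libraries and Nrp2 at 0.08 and 0.13, Sema7a was at -0.16 without non-tuft-like replicate 3 and -0.19 without tuft-like replicate 2, and Nfasc was at 0.07 without non-tuft-like replicate 1 and 0.01 without tuft-like replicate 1 or 2. Depth limits the lowest genes, and 10 of the 60 had fewer than 10 counts in at least 1 library.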
